A study of Homo sapiens with 6 samples.

Results

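The HSP70 family genes described here are the 10 rows of the gene table whose symbol is HSPA1A, HSPA1B, HSPA1L, HSPA2, HSPA4, HSPA5, HSPA6, HSPA8, HSPA9 or HSPA13, out of 35993 genes in all. A row was taken by its symbol, and no measured value entered that rule, though the family was chosen with earlier results of these data known. RNA was sequenced from MIA PaCa-2, an established human pancreatic cancer cell line, with 3 libraries from untreated cells and 3 from cells that were kept with rhCYGB at 4 µM for 48 h. rhCYGB is recombinant human cytoglobin, a heme protein that carried a His tag and was made in E. coli. All cells were moved to medium with less serum before the treatment, and what the untreated wells received in place of the protein is not given in the sources used here. The comparison asks which transcripts differ in these cells once the protein has been added.

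HSP70 proteins are ATP-driven chaperones that bind exposed hydrophobic stretches of unfolded proteins and release them for another attempt at folding. J-proteins deliver the clients and start ATP hydrolysis, and nucleotide exchange factors then remove ADP so that the client is let go. HSPA8 (HSC70) is the constitutive cytosolic member, HSPA1A and HSPA1B are the main stress-inducible ones, HSPA5 (BiP) serves the lumen of the endoplasmic reticulum (ER) and HSPA9 (mortalin) the mitochondrial matrix. Heat shock factor 1 (HSF1) is the regulator of the cytosolic inducible genes, whereas HSPA5 is a classical target of the ER unfolded protein response.

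The libraries held between 34838399 and 42271299 counts on genes, and 14728 genes had enough counts to be tested. All 10 members passed that filter, which asks for enough counts in at least 3 libraries. HSPA6, at 5 counts in the third untreated library, passed only through the rhCYGB libraries. HSPA2, at 10 counts in the first rhCYGB library, passed only through the untreated ones. Counts varied beyond sampling noise in each of the 6 pairs of libraries within a group (chi-square over degrees of freedom of 4.67 or more), so no library appears to be deposited more than once. Nothing in the labels says that the libraries came from separate cultures, and the p-values measure only the spread between these libraries. In the cell type check, the keratin genes KRT8, KRT18 and KRT19 and the intermediate filament gene VIM were high in all libraries, while EPCAM was at 0 counts throughout and CDH1 at no more than 2. These defining epithelial markers were therefore absent or nearly so. Summed FPKM of the 5 epithelial markers lay between 2270 and 2370 in untreated and between 1600 and 1710 in rhCYGB libraries. Within that sum KRT8 fell by 0.81 and KRT19 fell by 0.61 on the log2 scale, while KRT18 had a log2 fold change of 0.04 (edgeR adjusted p = 0.316). VIM rose from 3468 to 4535 FPKM in the mean, and the part of these shifts in the results below was not tested. The summed FPKM of 5 stellate cell markers lay between 3.54 and 3.84 in untreated and between 2.45 and 2.59 in rhCYGB libraries, and their part was not tested either. COL3A1 was the member of that sum that passed the test (log2 fold change -5.01), while ACTA2, which makes up most of the sum, had a log2 fold change of -0.08 (edgeR adjusted p = 0.548). CYGB itself was at 0 counts in all libraries, as were the leukocyte marker PTPRC and the endothelial marker PECAM1. Of the 3 acinar markers, PRSS1 and CPA1 were at 0 and AMY2A at no more than 7 counts.

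Most of the family rose after rhCYGB. In the quasi-likelihood test of edgeR, whose p-values were adjusted by Benjamini-Hochberg over every gene tested and called under 0.05, 8 of the 10 members were higher, against 39% of all genes tested, and 1 was lower, against 38.6%. By 2-fold or more, 6 of 10 were higher, against 12.4% of all genes, and 0 were lower, against 14.7%. Among the 8 and the 6 is HSPA6, which passed the filter only through its rhCYGB libraries. With no filter the numbers of higher members were also 8 and 6. The median log2 fold change of the 10 members was 1.67, compared with -0.0046 over all genes tested. The groups did not overlap for any member: the rhCYGB libraries were all higher for 8 members, against 39.8% of all genes, and all lower for 2, HSPA1L and HSPA2, against 39.7%. Together the 10 genes took 0.452% ± 0.0031 of all counts in untreated and 1.04% ± 0.00649 in rhCYGB libraries (mean ± SD, n = 3 libraries each). In these bulk libraries a change in the share of cells that carry a transcript and a change in RNA per cell cannot be told apart.

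**Figure D1:**
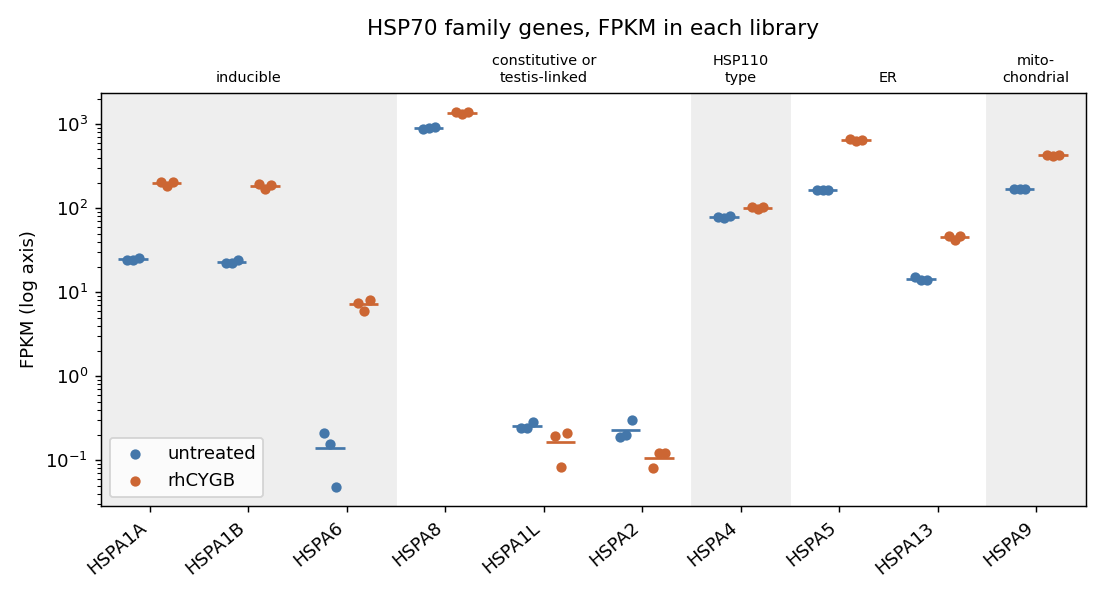
Each point is 1 library and each horizontal line a group mean (n = 3) of FPKM, the fragments of a gene scaled by its transcript length and by the mapped reads of the library, on a log axis, with untreated in blue and rhCYGB in orange, ordered by the role of the gene (ER, endoplasmic reticulum). HSPA6 moved from a mean of 0.140 to 7.16 FPKM, while HSPA8 was the highest member in both groups at 905.5 and 1377 FPKM.

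The inducible cytosolic genes had the largest changes. HSPA1A (NCBI gene 3303) lies at chromosome 6 from 31783320 to 31785719 in the deposited transcript table, for which the submitters' notes name a mouse build and whose positions are not those of GRCh38, and its transcript has no intron there. It was at 62.67, 62.37 and 65.98 CPM (counts scaled to library size, with a correction for composition) in untreated libraries 1, 2 and 3 and at 586, 544 and 580 CPM in rhCYGB libraries 1, 2 and 3. The lowest rhCYGB library was thus far above the highest untreated one, and the log2 fold change was 3.16 (standard error 0.0436, edgeR adjusted p = 1.02e-16). HSPA1B (gene 3304, chromosome 6, 31795515 to 31798031, also without an intron) lies 9795 bases beyond the end of HSPA1A and encodes nearly the same protein. Its CPM was 60.8, 60.0 and 64.4 in untreated and 584.5, 518.7 and 557.5 in rhCYGB libraries, which gives a log2 fold change of 3.16 (standard error 0.0497, edgeR adjusted p = 3.17e-16). In rhCYGB libraries the second was the lowest for both genes.

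The counts of HSPA1A and HSPA1B cannot be fully told apart. The reference transcripts of the pair share an unbroken run of 1715 bases, and 69.9% of all windows of 100 bases in the HSPA1A transcript occur letter for letter in HSPA1B. How the counting assigned reads that match both is not given in the sources used here, so the level of either gene alone is uncertain. Summing the counts of HSPA1A, HSPA1B and HSPA1L to 1 feature gave a log2 fold change of 3.16 (standard error 0.0449, edgeR adjusted p = 1.45e-16).

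HSPA6 (gene 3310, chromosome 1, 161494330 to 161496684) encodes a strictly inducible member that most unstressed cells hardly express. It had 21, 18 and 5 counts in the untreated libraries and 775, 573 and 835 in the rhCYGB libraries. All untreated libraries were low, and the third was the lowest, at 0.123 CPM against 0.564 and 0.402 in the first and second. Mean CPM was 0.363 ± 0.223 in untreated and 20.3 ± 2.77 in rhCYGB libraries (SD, n = 3 each), and the log2 fold change was 5.81 (standard error 0.228, edgeR adjusted p = 3.46e-12). It ranked 24 from the top among all genes tested, a set it entered only through its rhCYGB libraries. With no filter its log2 fold change was also 5.81 (edgeR adjusted p = 1.5e-10). On log2(FPKM + 1), a scale that understates the change of low genes, the difference was 2.83 (limma adjusted p = 1.03e-07).
HSPA7 is a transcribed pseudogene close in sequence to HSPA6 and no member of the set, and was looked at after the HSPA6 values were seen. It had 0, 1 and 2 counts in untreated and 102, 103 and 107 counts in rhCYGB libraries. Of the windows of 100 bases in the HSPA6 transcript, 27.6% also occur in HSPA7, and with both summed the log2 fold change was 5.91 (edgeR adjusted p = 5.37e-13). No other pair among the 10 members and HSPA7 shares such a window, the longest common run outside these pairs being 91 bases.

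HSPA8, the constitutive cytosolic member with the highest level of the family in these cells, also rose, but by less than 2-fold. It (gene 3312) lies at chromosome 11 from 122928197 to 122932844, and its CPM was 2164, 2184 and 2230 in untreated and 3807, 3657 and 3746 in rhCYGB libraries. The groups were far apart relative to their spread, and the log2 fold change was 0.77 (standard error 0.0282, 95% interval 0.71 to 0.83, edgeR adjusted p = 1.56e-12). Small nucleolar RNA genes SNORD14C, SNORD14D and SNORD14E lie within the HSPA8 locus in the deposited table, and reads shared with them were not separated here.
Its 2 transcripts moved alike. NM_006597, the full-length variant, went from 893 ± 21.1 to 1359 ± 53.3 FPKM, and NM_153201, a shorter variant, from 12.5 ± 1.20 to 18.0 ± 0.806 FPKM. The shorter one held 1.38% ± 0.134 of HSPA8 FPKM in untreated and 1.30% ± 0.0268 in rhCYGB libraries, and these ranges overlapped. In edgeR's fit over all 32577 transcripts tested, both variants were higher, with log2 fold changes of 0.69 (adjusted p = 2.03e-05) and 0.60 (adjusted p = 0.00450). Of the 11 member transcripts 9 were called higher, against 15.1% of all transcripts, and 0 lower, against 14.8%, HSPA1L (adjusted p = 0.441) and HSPA2 (adjusted p = 0.145) being those not called.

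HSPA1L and HSPA2, known chiefly for their expression in testis, were weak in both groups. HSPA2 (gene 3306, chromosome 14, 65007186 to 65009955) had 22, 27 and 37 counts in untreated and 10, 14 and 15 counts in rhCYGB libraries. These groups did not overlap, and HSPA2 fell by 0.94 on the log2 scale (standard error 0.372, 95% interval -1.73 to -0.14, edgeR adjusted p = 0.0320). This call rests on few counts. Without the third untreated library the adjusted p was 0.161, without the first rhCYGB library 0.124 and without the third rhCYGB library 0.0526 in edgeR's test, and DESeq2's Wald test gave 0.0758. HSPA1L (gene 3305, chromosome 6, 31777396 to 31783060) had 27, 33 and 35 counts in untreated and 24, 10 and 26 in rhCYGB libraries. The second rhCYGB library was the lowest, the other 2 were just under the untreated ones in CPM, and the log2 fold change of -0.48 did not pass the test (95% interval -1.24 to 0.28, edgeR adjusted p = 0.233).

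HSPA4 (APG-2) belongs to the HSP110 branch of the family, whose members act as nucleotide exchange factors for the other HSP70 proteins. It (gene 3308) lies at chromosome 5 from 132387705 to 132442141 and was at 411, 396 and 412 CPM in untreated and 597, 571 and 585 CPM in rhCYGB libraries. The groups did not overlap, and the log2 fold change of 0.52 (standard error 0.0349, 95% interval 0.45 to 0.60, edgeR adjusted p = 1.79e-09) was the smallest among the 8 higher members.

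Both members of the ER rose by more than 2-fold. HSPA5 (gene 3309, chromosome 9, 127997132 to 128003622), the BiP gene, was at 690, 693 and 678 CPM in untreated and 3144, 3026 and 2987 CPM in rhCYGB libraries. Its replicates were tight in either group, and the log2 fold change was 2.15 (standard error 0.0316, edgeR adjusted p = 1.85e-16). In the order of all genes by mean FPKM it moved from rank 341 to rank 112. HSPA13 (gene 6782, chromosome 21, 15743436 to 15755467), a microsomal member that lacks the usual peptide-binding part, was at 63.9, 59.6 and 58.0 CPM in untreated and 219, 202 and 220 CPM in rhCYGB libraries. No rhCYGB library came near the untreated ones, and the log2 fold change was 1.82 (standard error 0.0476, edgeR adjusted p = 4.10e-14).

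The mitochondrial member rose as well. HSPA9 (gene 3313, chromosome 5, 137889445 to 137911090), which pulls precursor proteins through the inner membrane and takes part in iron-sulfur cluster assembly, was at 801, 794 and 791 CPM in untreated and 2269, 2297 and 2241 CPM in rhCYGB libraries. The log2 fold change was 1.51 (standard error 0.0295, 95% interval 1.45 to 1.58, edgeR adjusted p = 2.05e-15). SNORD63 and SNORD63B lie within its locus in the deposited table.

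**Figure D2:**
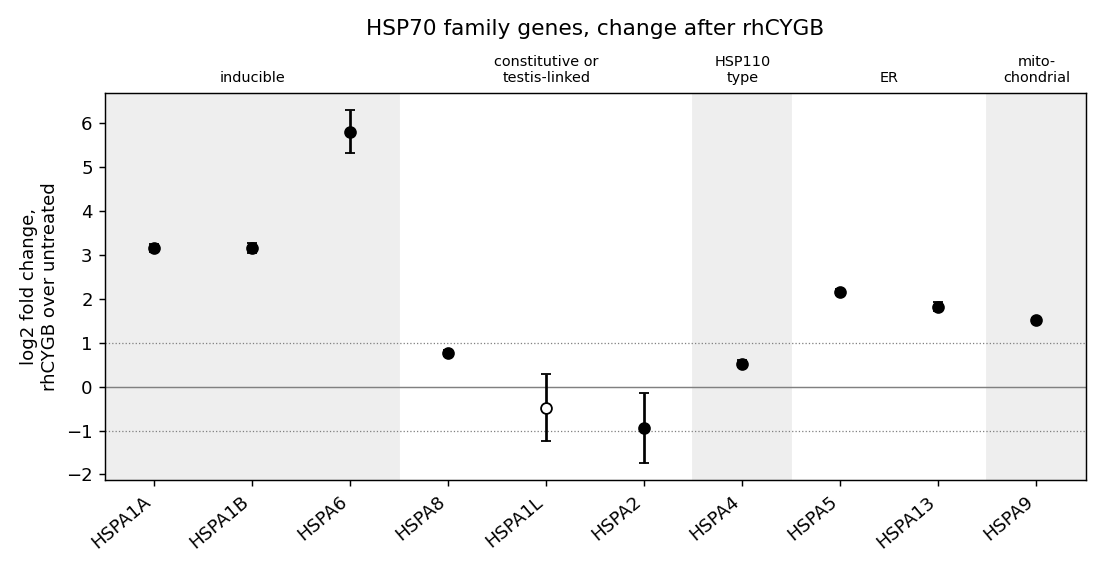
Points are log2 fold changes of rhCYGB over untreated from edgeR's fit (3 libraries per group) and bars are 95% intervals, with filled points past an adjusted p of 0.05 and dotted lines at 2-fold (ER, endoplasmic reticulum). HSPA6 stands highest at 5.81, HSPA1A and HSPA1B are both at 3.16, and the interval of HSPA1L spans 0.

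Parts of 5 promoters are shown, those of the inducible genes, the constitutive HSPA8 and the ER gene HSPA5, because they hold letters known from the elements of the regulators named above. They are the 130 bases just before the gene start on the coding strand, from RefSeq on build GRCh38.p14. All 10 members have a window there of 250 bases before to 50 after the start. Capitals mark GAANNTTC, a pair of heat shock units, in HSPA1A and HSPA1B. In HSPA6 and HSPA8 they mark the heat shock element of 3 units, which is GAA, TTC and GAA with any 2 bases between neighbors, on either strand. In HSPA5 they mark the ER stress element, which is CCAAT and CCACG with any 9 bases between them, on either strand.
HSPA1A, chr6:31815413-31815542, plus strand: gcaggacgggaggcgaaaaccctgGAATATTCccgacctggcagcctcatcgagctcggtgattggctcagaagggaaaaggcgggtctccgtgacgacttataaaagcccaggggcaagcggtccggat
HSPA1B, chr6:31827608-31827737, plus strand: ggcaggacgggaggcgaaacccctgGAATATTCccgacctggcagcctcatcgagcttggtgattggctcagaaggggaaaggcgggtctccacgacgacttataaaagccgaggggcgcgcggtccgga
HSPA6, chr1:161524410-161524539, plus strand: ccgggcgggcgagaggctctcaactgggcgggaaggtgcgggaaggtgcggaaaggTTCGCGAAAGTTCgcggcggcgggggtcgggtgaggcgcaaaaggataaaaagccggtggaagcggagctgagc
HSPA8, chr11:123062137-123062266, minus strand: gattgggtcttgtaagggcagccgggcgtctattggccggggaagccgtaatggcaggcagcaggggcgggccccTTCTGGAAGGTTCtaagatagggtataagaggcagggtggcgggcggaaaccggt
HSPA5, chr9:125241344-125241473, minus strand: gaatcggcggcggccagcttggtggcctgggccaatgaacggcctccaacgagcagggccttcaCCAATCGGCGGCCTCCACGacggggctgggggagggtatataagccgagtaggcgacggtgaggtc
The 3-unit element occurred in 2 of the 10 member windows, those of HSPA6, the member with the largest change, and HSPA8, which changed by less than 2-fold and has a second match 230 bases before the start. Of all 35116 windows from RefSeq, 0.49% hold it. Only exact matches were counted, here and below, so an element with other letters in a unit is missed. The shorter GAANNTTC, which the 3-unit element contains, was found in 5 member windows, those of HSPA1A, HSPA1B, HSPA1L, HSPA6 and HSPA8, and in 6.77% of all windows. The pair of units in the other orientation, TTCNNGAA, was found in HSPA6, HSPA8 and HSPA9 and in 7.74% of all windows. In HSPA1A and HSPA1B the letters TATAAA follow, starting 30 and 29 bases before the start. On either strand this match is present in 11.5% of all windows and in 3 of the 10 member windows. The third is that of HSPA1L, with TTTATA starting 235 bases before its start.
The ER stress element was in the window of HSPA5, starting 66 bases before the start, and in 0.0769% of all windows. HSPA2, HSPA4 and HSPA13 had none of these matches. HSPA1L is read away from HSPA1A, their windows share 241 of 300 bases, and both contain the same GAATATTC. HSPA1A had a log2 fold change of 3.16. That of HSPA1L, at 35 counts or fewer per library, was -0.48 and did not pass the test (edgeR adjusted p = 0.233). The part of these letters in either value was not tested. These genes lie 259 bases apart in the deposited coordinates. A match is a description of letters and not a measured binding site.

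Compared per length, the order of the members changed. In untreated cells mean FPKM ran from HSPA8 (905.5 ± 21.2) through HSPA9 (168.3 ± 0.670), HSPA5 (163.3 ± 0.838), HSPA4 (79.4 ± 2.01), HSPA1A (24.7 ± 0.967), HSPA1B (22.9 ± 1.04) and HSPA13 (14.3 ± 0.624) to HSPA1L (0.257 ± 0.0279), HSPA2 (0.230 ± 0.0611) and HSPA6 (0.140 ± 0.0845). The ranges of HSPA1L and HSPA2 overlapped, as did those of HSPA2 and HSPA6, while the ranges of the other neighbors were separate. That includes HSPA1A and HSPA1B, but since reads that match both cannot be assigned with certainty, their order is uncertain. After rhCYGB the order was HSPA8 (1377 ± 54.0), HSPA5 (647.5 ± 22.1), HSPA9 (428.5 ± 4.39), HSPA1A (197.7 ± 11.9), HSPA1B (183.1 ± 14.0), HSPA4 (101.8 ± 4.19), HSPA13 (45.1 ± 3.07), HSPA6 (7.16 ± 1.12), HSPA1L (0.163 ± 0.0692) and HSPA2 (0.107 ± 0.0231). Here HSPA1A overlapped HSPA1B and HSPA1L overlapped HSPA2. HSPA5 thus passed HSPA9, and both HSPA1A and HSPA1B passed HSPA4.

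The classes of the family were contrasted by the ratio of FPKM between members within a library, from which the scaling of the libraries cancels. HSPA1A and HSPA1B together stood at 0.0525 times HSPA8 in untreated and 0.276 times in rhCYGB libraries. On the log2 scale the ratio was -4.25, -4.28 and -4.22 in untreated and -1.82, -1.90 and -1.84 in rhCYGB libraries, a difference of 2.39 (standard error 0.0301). Of the 6 ratios compared, which leave out HSPA6, this one moved most. HSPA5 over HSPA8 was at -2.44, -2.45 and -2.51 against -1.07, -1.07 and -1.12, a difference of 1.38 (standard error 0.0280). HSPA9 over HSPA8 was at -2.40, -2.42 and -2.46 against -1.71, -1.63 and -1.70, a difference of 0.74 (standard error 0.0304). The ER and mitochondrial members each gained on HSPA8, and the ER member gained on the mitochondrial one. HSPA5 over HSPA9 was at -0.047, -0.029 and -0.055 in untreated and 0.64, 0.57 and 0.58 in rhCYGB libraries, a difference of 0.64 (standard error 0.0233). The inducible pair over HSPA5 moved by 1.01 (standard error 0.0517), and within the ER HSPA13 over HSPA5 moved by -0.33 (standard error 0.0551). For each of the 6 pairs compared the groups did not overlap, and the two-sided exact permutation test gave p = 0.1, which is the smallest value that 3 against 3 libraries allow and which is also 0.1 after adjustment over the 6 pairs.

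**Figure D3:**
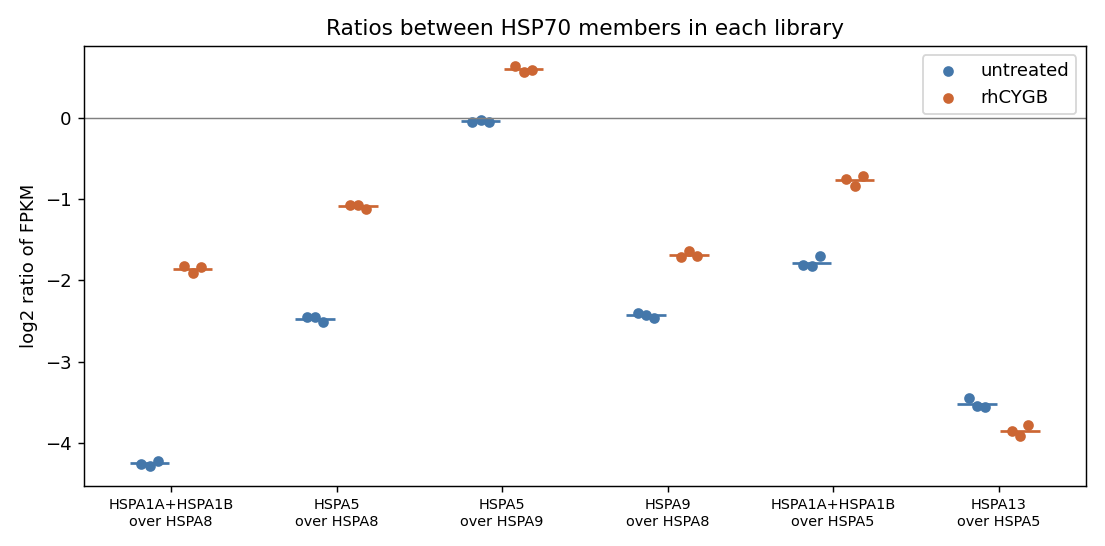
Each point is the log2 ratio of FPKM between members in 1 library and each line the mean of 3, untreated in blue and rhCYGB in orange. The ratio of HSPA1A and HSPA1B to HSPA8 moved most, by 2.39, and that of HSPA13 to HSPA5 was the only one of the 6 that fell, by 0.33.

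As a share of the summed FPKM of the 10 members, HSPA8 held 65.7% ± 0.424 in untreated and 46.1% ± 0.213 in rhCYGB libraries (mean ± SD, n = 3). HSPA5 held 11.8% ± 0.245 and 21.7% ± 0.350, HSPA9 12.2% ± 0.184 and 14.4% ± 0.400, and HSPA1A and HSPA1B together 3.45% ± 0.0874 and 12.7% ± 0.394. The share of HSPA4 was 5.75% ± 0.107 and 3.41% ± 0.0149, although its own level rose. Summed FPKM of the family was 1379 ± 23.9 in untreated and 2988 ± 112 in rhCYGB libraries.

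**Figure D4:**
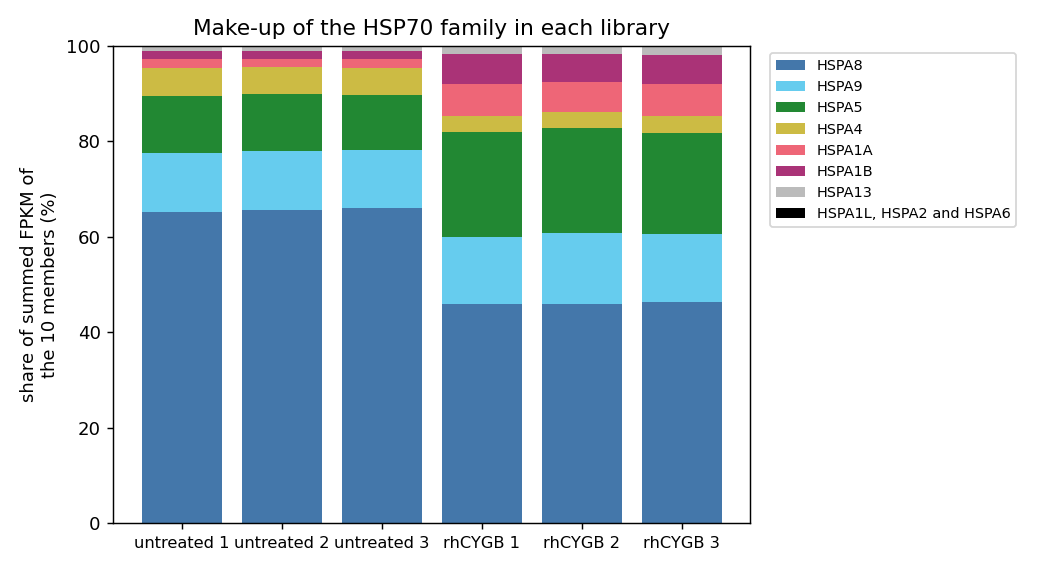
Each bar is 1 library and shows the percentage of the summed FPKM of the 10 HSP70 genes held by each of them, with the 3 weakest added together. HSPA8 takes 65.2 to 66.1% in untreated and 46.0 to 46.3% in rhCYGB libraries, and the bands of HSPA5, HSPA1A and HSPA1B are wider after rhCYGB.

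The genes that work with HSP70 were taken from 6 lists. Of 50 listed partners 49 could be tested, HSPA12B being at 0 counts in all libraries, and edgeR's test called 29 of them higher, against 39% of all genes tested, and 10 lower, against 38.6%. With total counts or upper-quartile scaling in place of edgeR's TMM factors, 28 were higher and 17 lower. By 2-fold or more, 13 were higher, against 12.4% of all genes, and 0 lower, against 14.7%, and the median log2 fold change was 0.39, compared with -0.0046 over all genes. The single lists below are small, and their counts are to be read against the same 39% higher and 38.6% lower.

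Among relatives of the family outside the 10 members, 3 of 5 tested genes were higher and 1 lower. HSPA4L and HSPH1, both of the HSP110 branch like HSPA4, rose by 1.22 and 1.22 on the log2 scale, more than HSPA4 itself at 0.52, though this difference was not tested. HYOU1, the HSP110-type partner of HSPA5 in the ER, rose by 1.13, while HSPA14, a ribosome-associated member, fell by 0.25 on the log2 scale. Of 11 cytosolic exchange factors and co-chaperones 7 were higher and 0 lower, none by 2-fold, but 4 were lower and 6 higher with total counts or upper-quartile scaling, and 1 was lower with DESeq2's size factors. CHORDC1, a co-chaperone of HSP90, and the exchange factor BAG1 rose most, by 0.99 and 0.87, and ST13 and BAG4 least among those called, by 0.38 and 0.21.

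Of 9 cytosolic J-proteins 5 were higher and 2 lower, the latter being 4 with total counts or upper-quartile scaling. DNAJB1 rose by 2.32 on the log2 scale (standard error 0.0409, edgeR adjusted p = 7.50e-16), and DNAJB2 rose by 2.29. DNAJC7 fell by 0.26 and DNAJA1 fell by 0.14 on the log2 scale. HSF1 rose by 1.24 and HSF2 by 0.76, while HSF4, at 0.18, did not pass (edgeR adjusted p = 0.216).

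In the ER list, 6 of 11 partners of HSPA5 were higher and 4 lower, shares not far from those over all genes. The J-proteins DNAJB9 and DNAJC1 rose by 1.90 and 1.29. SDF2L1 and MANF fell by 0.96 and 0.40 on the log2 scale. HSP90B1, the other abundant chaperone of the ER lumen, had a log2 fold change of -0.04 under TMM scaling (edgeR adjusted p = 0.342). With total counts or upper-quartile scaling all 11 genes of the list were called, 6 higher and 5 lower, so HSP90B1 passed there. The median log2 fold change of the ER list was 0.27. Of the 10 mitochondrial partners of HSPA9, 6 were higher and 3 lower, with a median log2 fold change of 0.42. GRPEL2, an exchange factor of HSPA9, and ISCU, the scaffold for iron-sulfur clusters, rose by 1.28 and 1.21. HSPE1, the lid of the HSPD1 chaperonin, fell by 0.94 on the log2 scale although HSPD1 rose by 0.33, and DNAJC19, a J-protein of the import motor, fell by 0.83 on the log2 scale.

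**Figure D5:**
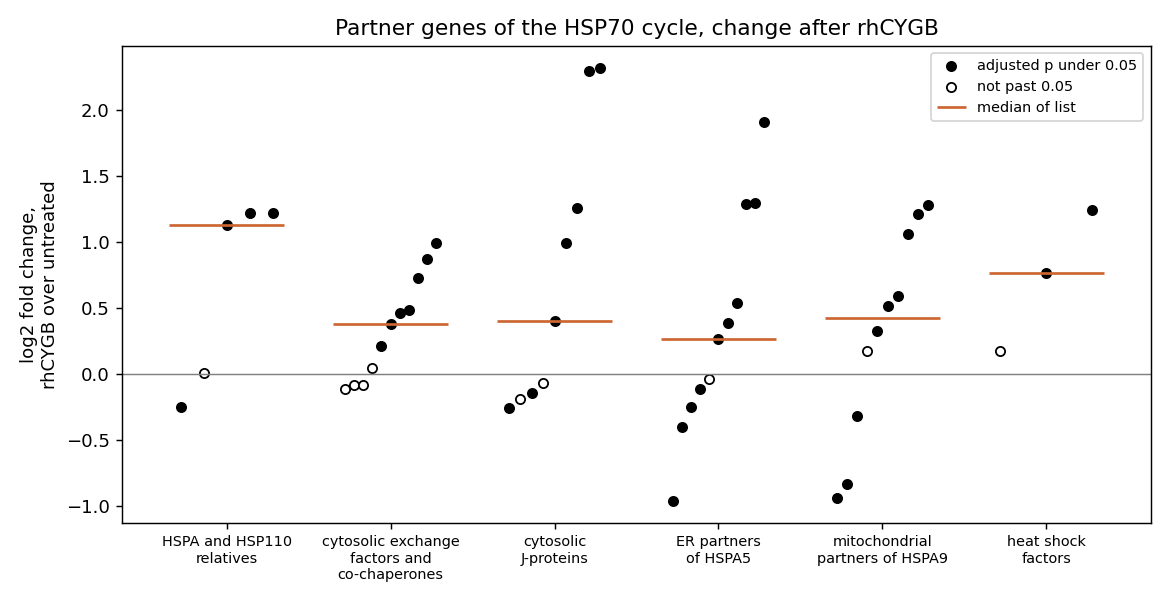
Each point is the log2 fold change of 1 partner gene, rhCYGB over untreated, filled where edgeR's adjusted p was under 0.05, and each orange line the median of its list (ER, endoplasmic reticulum). The medians lie between 0.27 for the ER partners of HSPA5 and 1.13 for the HSPA and HSP110 relatives, and 4 of the 6 lists hold both genes called higher and genes called lower under TMM scaling.

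Genes with the most similar pattern were found by the Pearson correlation of log2 CPM over the 6 libraries, among 9338 genes outside the family with a mean of at least 10 CPM. The closest were SLC44A2, AGTPBP1 and SMG1P5 for HSPA1A, MROH1, WDFY1 and RYBP for HSPA8, SARS1, SHISA4 and MKNK2 for HSPA5, and CCT6P1, SARS1 and CDV3 for HSPA9. These correlations follow mainly the difference between the groups, since 3434 to 3458 of the genes had a correlation over 0.95 with any of the 4 members, and they are given without a test.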

How the data were processed

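RNA of 3 untreated and 3 rhCYGB libraries was made into libraries with a stranded mRNA kit. According to the submitters' processing notes and the paper's methods, the authors checked reads with FastQC 0.11.7, mapped trimmed reads with HISAT2 2.1.0 and assembled transcripts with StringTie 2.1.3b. Those notes name mm10 as the build although the cells and the gene identifiers are human. None of the 10 members overlaps its GRCh38 position in the deposited table, so positions from the table and from GRCh38 are given apart. The deposited read counts per gene and transcript are whole numbers that the authors did not normalize. The deposited FPKM values are scaled by the authors to transcript length and mapped reads. The 6 TPM columns of each table were not used. The tool that made the counts, and whether it used strand, are not given in the sources used here.

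Genes were filtered with filterByExpr of edgeR 4.0.16 in R 4.3.3, scaled with TMM factors and tested with the quasi-likelihood test on all 6 libraries without a block, adjusting over all genes tested. A called gene had an adjusted p under 0.05, with a fold change of 2 or more where stated. The common dispersion was 0.0030. CPM uses the scaled library sizes, and log2 CPM a prior count of 2. The floor of 3 counts lies between 0.0669 and 0.0902 CPM and covers counting error only. Scripts were checked on simulated data in which few genes changed. Here 11427 of 14728 genes were called, so that check does not cover scaling under so broad a change. The members and lists were chosen with earlier results of these data known, and the study itself plotted several HSP70 genes and partners from these libraries, so their direction is not independent evidence. Named partners are the 2 highest and 2 lowest called genes of each list. Others (HSPD1, HSP90B1, HSF4 and HSPA7) were chosen after their values were seen. Alternatives were other scaling, filters, DESeq2 1.42.0, limma 3.58.1 on log2(FPKM + 1) and log2(FPKM + 0.1), counts summed from transcripts, a replicate block and leaving out each library.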

Additional observations from a re-analysis of the deposited data

How the results depend on the processing

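Under at least 16 alternatives each, the 8 higher members kept their direction and their call wherever they could be tested, except that HSPA6 was removed by a minimum of 10 counts in every library and so has no value there. The number of higher members was 7 under that minimum and 8 under all other alternatives run. Counts summed from transcripts repeat the gene counts of the members and are no separate check of them. For HSPA6 the alternatives include its sum with HSPA7, a gene chosen after its values were seen. The number of lower members, 1 in the report, was 0 with DESeq2's Wald test and 0 with the replicate block, and ranged from 0 to 1 when 1 library was left out. HSPA2 is that gene, and the call was lost in 5 of 16 alternatives. The number lower by 2-fold or more, 0 in the report, was 1 with total counts and 1 with upper-quartile scaling, and ranged from 0 to 1 with 1 library left out. Total counts moved the median log2 fold change of all genes by -0.16 and upper-quartile scaling by -0.14. Under each of them 17 partners were lower in place of 10, and 2 were lower by 2-fold or more in place of 0. With limma on log2(FPKM + 1) 7 partners were higher by 2-fold or more in place of 13 and 2 lower, and on log2(FPKM + 0.1) 2 were lower. That number ranged from 0 to 1 with 1 library left out. The causes of these differences were not tested beyond the scaling shift given. As shares of read counts rather than FPKM, HSPA8 held 51.4% in untreated and 34.0% in rhCYGB libraries, HSPA5 16.1% and 27.7%, HSPA9 18.6% and 20.6%, and HSPA1A with HSPA1B 2.94% and 10.2%, since longer transcripts weigh more in counts. All 54 alternative values of the ratios between members kept their direction, but most of them could not have done otherwise. The groups did not overlap for any pair, so leaving out 1 library could not reverse a difference. The differences within replicate numbers equal the main ones by arithmetic. Read counts differ from FPKM mostly by transcript length, which nearly cancels in these differences.

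The labels do not say whether libraries with the same replicate number belong together, and the counts showed no sign of it. With 3 libraries per group this cannot show that they were handled apart. The correlation of deviations between same-numbered libraries was -0.048, 0.007 and 0.006, and not every library correlated best with its own number. With the replicate block HSPA2 had an adjusted p of 0.0541 in edgeR's test, the number of higher members was 8, and 29 partners were higher and 11 lower. Within replicate numbers the mean differences of the ratios are the same by arithmetic and are no check of pairing. An exact test over 3 pairs cannot go below 0.25. Depth limits HSPA1L and HSPA2, which had at most 37 counts in any library.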
